A study of Mus musculus with 6 samples.

Results

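The myelin genes of oligodendrocytes were described across 6 RNA-seq libraries of mouse cerebellum. They are 9 structural myelin and mature oligodendrocyte genes taken by symbol: Mbp, Mog, Mag, Mobp, Mal, Cnp, Cldn11, Ermn and Opalin. All 9 were present among the 24537 genes listed for each library. Of these, 8 averaged 1 FPKM or more and entered the test, and Opalin, with an average of 0.582 FPKM, did not. FPKM is the authors' unit, reads per kilobase of a gene scaled to the size of the library.

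All libraries came from male mice at 6 weeks after birth. The 3 wild-type (WT) libraries carried the strain label C57BL/6, and the 3 libraries heterozygous for a null allele of Reln (HET) carried the label Orl/BalbC, so genotype and labelled strain cannot be told apart. Nothing in the labels ties each library to an animal of its own, and p-values therefore measure the spread between these libraries, which may be technical. Reln, which encodes the secreted positioning protein reelin, was at 0.834, 0.771 and 0.940 FPKM in WT replicates 1, 2 and 3 and at 0.531, 0.509 and 0.580 FPKM in HET replicates 1, 2 and 3, lower in every HET library than in any WT library.

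Oligodendrocytes wrap axons of the central nervous system in a multilayered membrane, myelin, which insulates the axon and speeds conduction. In the compact part of the sheath, Mbp (myelin basic protein) joins the cytoplasmic faces of the membrane, while Cnp and Mag act in the non-compacted parts and Mog lies on the outermost surface. In the cerebellum most oligodendrocytes lie in the white matter and the granular layer, and the transcription factors Sox10 and Myrf are known to drive their myelin genes.

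Each gene occupies a single locus of GRCm38 (mm10), here with GENCODE M21 positions (Mbp is placed further on). Cnp lies on chromosome 11 at 100574904 to 100591729, Mobp on chromosome 9 at 120149707 to 120181484 and Cldn11 on chromosome 3 at 31149920 to 31164324, all on the plus strand. The minus strand holds Mag on chromosome 7 at 30899176 to 30914873, Mog on chromosome 17 at 37010743 to 37023398 and Opalin on chromosome 19 at 41061710 to 41077113. It also holds Mal and Ermn, both on chromosome 2, at 127633226 to 127656695 and at 58045113 to 58052864. Other annotated genes overlap the spans of 5 members: Rpl21-ps8 in Mbp, Gm22388 in Mog, Gm38642 in Mobp, Dnajc7 in Cnp and Galnt5 in Ermn. Whether the counting used strand is not given in the sources used here, so reads of Cnp and Dnajc7, for example, may be mixed.

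The upstream sequences of 4 members are shown from those that carry letters that MYRF and SOX10, the factors named above, are known to bind. Opalin also carries such letters and is not shown. RefSeq promoter windows of GRCm38.p6, 250 bases before to 50 bases after a transcript start, were found for 8 of the 9 members. Capitals mark matches to CTGGCAC or CTGGTAC (MYRF) and ACAAAG (SOX10) on either strand, with bases inside the annotated gene left off. The Cnp stretch is chr11:100574689-100574903 on the plus strand, Mag chr7:30914923-30915172 on the minus strand, Mog chr17:37023399-37023648 on the minus strand and Mobp chr9:120149492-120149706 on the plus strand.
Cnp: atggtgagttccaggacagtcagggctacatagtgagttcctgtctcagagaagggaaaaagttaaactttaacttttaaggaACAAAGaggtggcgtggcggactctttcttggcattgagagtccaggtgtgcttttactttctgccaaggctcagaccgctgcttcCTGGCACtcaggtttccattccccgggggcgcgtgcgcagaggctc
Mag: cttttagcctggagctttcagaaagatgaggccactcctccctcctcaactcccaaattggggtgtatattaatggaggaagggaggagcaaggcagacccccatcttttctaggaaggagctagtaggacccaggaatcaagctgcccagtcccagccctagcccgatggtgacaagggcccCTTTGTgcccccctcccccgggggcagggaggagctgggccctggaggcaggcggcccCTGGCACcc
Mog: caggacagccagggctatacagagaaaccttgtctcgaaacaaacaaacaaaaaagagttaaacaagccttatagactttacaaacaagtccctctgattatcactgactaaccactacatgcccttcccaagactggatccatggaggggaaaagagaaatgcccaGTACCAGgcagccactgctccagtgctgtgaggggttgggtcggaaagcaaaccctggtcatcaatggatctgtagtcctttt
Mobp: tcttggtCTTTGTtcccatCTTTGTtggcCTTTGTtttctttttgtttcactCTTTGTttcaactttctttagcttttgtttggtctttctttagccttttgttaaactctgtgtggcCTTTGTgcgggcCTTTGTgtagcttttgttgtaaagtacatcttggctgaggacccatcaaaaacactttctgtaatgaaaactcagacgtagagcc

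Cnp and Mag each held CTGGCAC and ACAAAG, and the ACAAAG of Mag lay on the opposite strand, appearing above as CTTTGT. Mog held only CTGGTAC of these letters, read on the opposite strand. In Mobp, 6 matches to ACAAAG lay on the opposite strand, appearing above as CTTTGT. Over the full windows, CTGGCAC was in 3 of 8 members (Cnp, Mag and Opalin) and in 5.73% of 27025 genes with a window, and ACAAAG was in 4 of 8 (Cnp, Mag, Mobp and Opalin) and in 21% of genes. CTGGTAC was in 1 of 8 members, against 2.6% of genes. The GC box GGGCGG, also searched on both strands, was in 2 of 8 (Cldn11 and Cnp), against 38.2% of genes. No 2 matches overlapped in these windows, and a match is a description of letters and not a binding site.

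The length by which the deposited values had been divided was read from the values themselves, because it sets how genes compare with each other. For genes with 1 transcript and a span over 3 times the exon length, low values under 6 reads were within 0.1 of a whole number of reads in 83.6% to 88.8% of cases per library when the span from gene start to gene end was used. With the exon length the share was 17.3% to 22.1%, although the labels' protocols describe FPKM per kilobase of exon. With the RefSeq span, Mog came out within 0.05 of whole reads in all 6 libraries, at 1487, 1017 and 1108 reads in WT replicates 1, 2 and 3 and 1330, 1567 and 1154 in HET replicates 1, 2 and 3. Cldn11 did so in 5 libraries and Mal in 2, and the other 6 members in 0, so that their read numbers are approximate and the exact length used for them is not known. FPKM of a member is treated here as per kilobase of its span, introns included, from the values over many genes, and whether intron reads were counted is not given in the sources used here. The length used does not touch the ratio of 1 gene's FPKM between libraries. It does touch the filter at 1 FPKM and differences in log2(FPKM + 1). With reads scaled to library size and not divided by length, 13122 genes were tested, Opalin among them, in place of 6358. The HET minus WT difference of Opalin was then 0.23, against 0.10 in FPKM without the filter. That of Mog was 0.33, against 0.26 in FPKM.

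**Figure D1:**
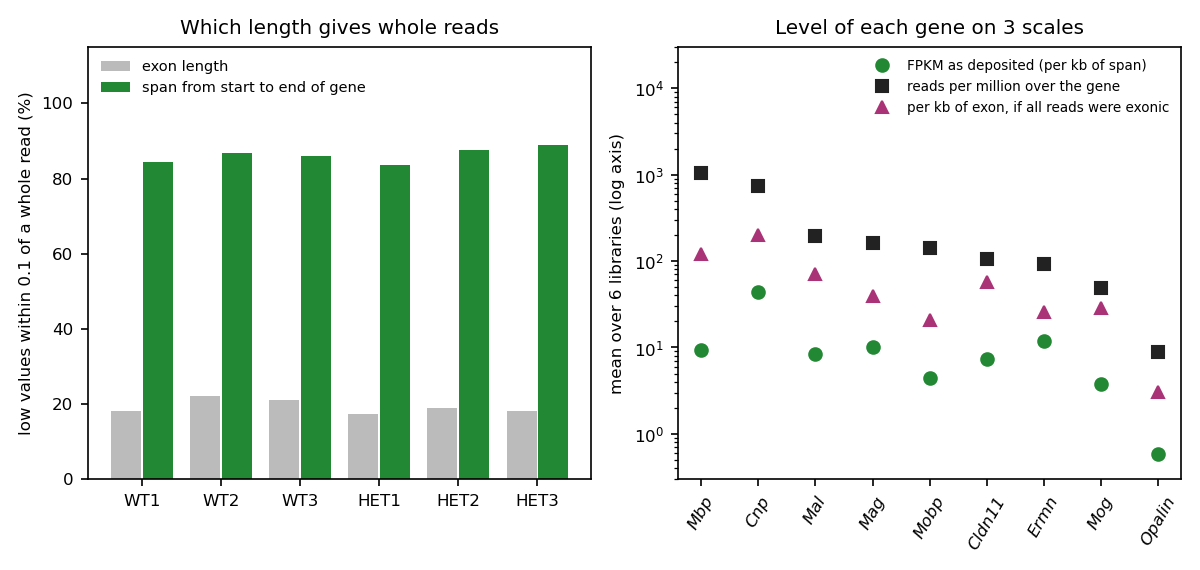
Left, the percentage of low values (under 6 reads) within 0.1 of a whole read in each library, with exon length or gene span as the divisor. The span bars reach 83.6% to 88.8% and the exon bars 17.3% to 22.1%. Right, the mean over 6 libraries of each member on 3 scales on a log axis, with Mbp 4th among the members by FPKM and highest by RPM (reads per gene scaled to library size).

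The order of the members depended on the length used. On the scale of RPM, the reads of a gene scaled to library size and not divided by length, Mbp led with 1035 ± 174 (SD over the 6 libraries), followed by Cnp with 731 ± 144. Their ranges over libraries, 753 to 1236 and 534 to 949, overlapped, and both lay above the range of every other member. Mal (198 ± 34.6), Mag (161 ± 33.4) and Mobp (143 ± 29.9) came next, then Cldn11 (107 ± 19.1) and Ermn (93.2 ± 18.8), and these neighbours overlapped as well. Mog was at 48.3 ± 8.17 and Opalin, a mature oligodendrocyte membrane protein, at 8.97 ± 2.02, each below every library of the member before it. By FPKM per kilobase of span, the order began instead with Cnp (43.4), Ermn (12.02), Mag (10.3) and Mbp (9.37). Ermn moved from 2nd to 7th because its span is the shortest, 7.8 kb. If all reads lay in exons, the level per kilobase of exon would be 201 for Cnp, 122 for Mbp and 71.1 for Mal. Mbp lies on chromosome 18 at 82475146 to 82585637 on the plus strand and has the longest span, 110.5 kb, of which 8.47 kb is exon.

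The deepest member, Mbp, rested on up to about 35107 reads in a library and the shallowest, Opalin, on as few as about 187. Counting error alone was thus 0.53% to 7.32% of a value, covering sampling only. The libraries held about 26867860 to 28606098 reads in WT and 22888147 to 27100561 in HET, read from the steps between low values. Together the 9 genes took 0.289%, 0.187% and 0.220% of reads in WT replicates 1, 2 and 3 and 0.251%, 0.309% and 0.260% in HET replicates 1, 2 and 3. WT replicate 2 had the smallest share and HET replicate 2 the largest, and WT replicate 1 lay above 2 of the 3 HET libraries.

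Against WT, no member changed in HET at the threshold, an adjusted p under 0.05 in limma with Benjamini-Hochberg adjustment over 6358 genes. The count was 0 of 8 tested members, where 0.0786% of all tested genes passed, 0.0157% as higher and 0.0629% as lower in HET. In this bulk tissue, a different number of oligodendrocytes and a different amount of RNA per cell cannot be told apart. Differences below are HET minus WT in mean log2(FPKM + 1), with the standard error (SE), and each of the 8 tested members had a limma Benjamini-Hochberg adjusted p of 0.90.

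Of the compact myelin proteins, Mbp had 11.2, 6.82 and 8.57 FPKM in WT replicates 1, 2 and 3 and 9.24, 10.7 and 9.64 FPKM in HET replicates 1, 2 and 3. The highest and the lowest library were both WT, so that all HET values lay inside the WT range. The means were 8.86 ± 2.20 and 9.87 ± 0.78 FPKM (SD, n = 3 each) and the difference was 0.16 (SE 0.15). Mobp, a small basic protein of compact myelin, had 4.85, 3.69 and 3.42 FPKM in WT and 4.36, 6.06 and 4.56 FPKM in HET, in replicate order. HET replicate 2 was highest, but WT replicate 1 exceeded the other two HET libraries. Its difference was 0.27 (SE 0.14), with means of 3.99 ± 0.764 and 4.99 ± 0.929 FPKM (SD, n = 3 each).

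Mal, a proteolipid that sorts membrane into myelin, was the member whose groups were separate. Its WT values were 8.87, 6.70 and 6.504 FPKM and its HET values 9.42, 10.1 and 8.88 FPKM in replicate order. Every HET library was above every WT library, by a margin as small as 8.881 in HET replicate 3 against 8.874 FPKM in WT replicate 1. The means were 7.36 ± 1.31 and 9.47 ± 0.618 FPKM (SD, n = 3 each), a ratio of 1.29, and the difference was 0.33 (SE 0.15, 95% interval 0.04 to 0.63, not adjusted for the number of genes). Groups separated in this way, with HET higher, in 1 of 8 members and in 4.81% of all tested genes.

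Among the genes of the non-compacted membrane, Cnp, an enzyme bound to the membrane and to the cytoskeleton, had 48.4, 31.7 and 37.9 FPKM in WT and 42.1, 56.4 and 44.04 FPKM in HET, in replicate order. Mag, the adhesion protein of the membrane facing the axon, had 11.3, 7.25 and 9.03 FPKM in WT and 10.1, 13.6 and 10.3 FPKM in HET. Both genes shared one pattern, with HET replicate 2 highest, WT replicate 2 lowest, and WT replicate 1 above the remaining HET libraries. Their differences were 0.28 (SE 0.18) for Cnp, with means of 39.3 ± 8.44 and 47.5 ± 7.78 FPKM, and 0.28 (SE 0.16) for Mag, with means of 9.19 ± 2.02 and 11.3 ± 1.94 FPKM (SD, n = 3 each).

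On the outer surface, Mog, an immunoglobulin-fold protein and the target of antibodies in demyelinating disease, had 4.14, 2.99 and 3.06 FPKM in WT and 4.18, 4.57 and 3.98 FPKM in HET, in replicate order. WT replicate 1 fell among the HET values, and the other two WT libraries lay below all of them. The means were 3.40 ± 0.643 and 4.24 ± 0.297 FPKM (SD, n = 3 each), and the difference of 0.26 (SE 0.13) had a 95% interval of 0.003 to 0.523, not adjusted. Cldn11, the claudin of the tight junctions between myelin layers, had 8.69, 5.64 and 6.16 FPKM in WT and 7.35, 8.95 and 7.78 FPKM in HET. WT replicate 1 again lay above 2 HET libraries, and the difference was 0.22 (SE 0.15).

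Ermn, an actin-associated protein of late myelination, had 14.2, 8.44 and 10.1 FPKM in WT and 11.7, 14.7 and 13.04 FPKM in HET, in replicate order, with a difference of 0.27 (SE 0.16). Opalin had 0.589, 0.451 and 0.539 FPKM in WT and 0.578, 0.507 and 0.830 FPKM in HET. It departed from the other members, since HET replicate 3 was its highest library and HET replicate 2 lay below 2 WT libraries. In a limma fit without the filter on low values its difference was 0.10 (SE 0.09, Benjamini-Hochberg adjusted p 0.97).

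**Figure D2:**
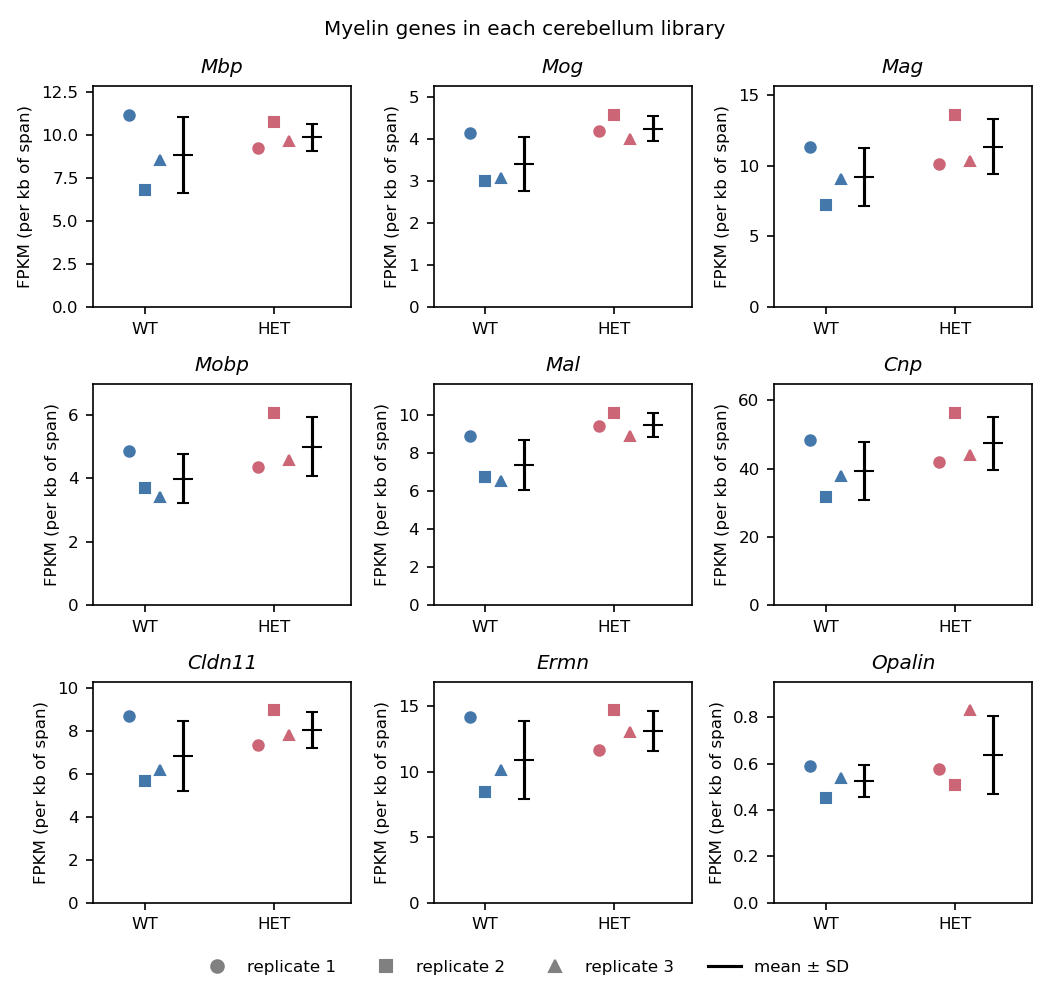
FPKM per kilobase of gene span of each member in the 3 WT (blue) and 3 HET (red) libraries, with black lines for mean ± SD, n = 3; marker shapes give the replicate number. The HET mean is above the WT mean in all 9 panels, and the groups are separate in the Mal panel alone.

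As a list, 8 of 8 tested members had a higher mean in HET, as did 83.1% of all tested genes. The members' median difference was 0.27, and that of all tested genes 0.08. At an unadjusted limma p under 0.05 there were 2 of 8 members, Mal and Mog, both higher in HET, beside 2.58% of all genes higher in HET at that level. After median-of-ratios scaling, which divides each library by its typical ratio to the others (size factors of 0.84 in WT replicate 2 to 1.136 in HET replicate 2), the median was 0.17 for the members and 0.00 for all genes. The mean was then higher in HET in 8 of 8 members and in 49.1% of all genes. The members moved together over the same 6 libraries (median r between pairs 0.76 after scaling), so these 8 are not separate observations. Without WT replicate 2 the members' median was 0.14, where all genes had 0.01, and without HET replicate 2 it was 0.15, where all genes had 0.04. Without WT replicate 1 the members' median was 0.41, and that of all genes rose as well, to 0.15. Without both libraries numbered 2 the members' median was 0.04, where all genes had -0.03.

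Scaling brought Mog and Mal to the same description. Scaled FPKM of Mog was 3.83, 3.56 and 3.14 in WT and 4.15, 4.02 and 4.04 in HET, in replicate order. For Mal it was 8.22, 7.98 and 6.68 in WT and 9.34, 8.90 and 8.998 in HET. Every HET library was above every WT library for both genes, the count being 2 of 8 members where 5.73% of all genes separated with HET higher. The scaled differences were 0.17 (SE 0.07) for Mog and 0.23 (SE 0.08) for Mal, and the adjusted p was 0.78 for both in limma with Benjamini-Hochberg adjustment. For Mbp the scaled difference was 0.06, the smallest of the 8, and the other five lay between 0.12 and 0.18.

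**Figure D3:**
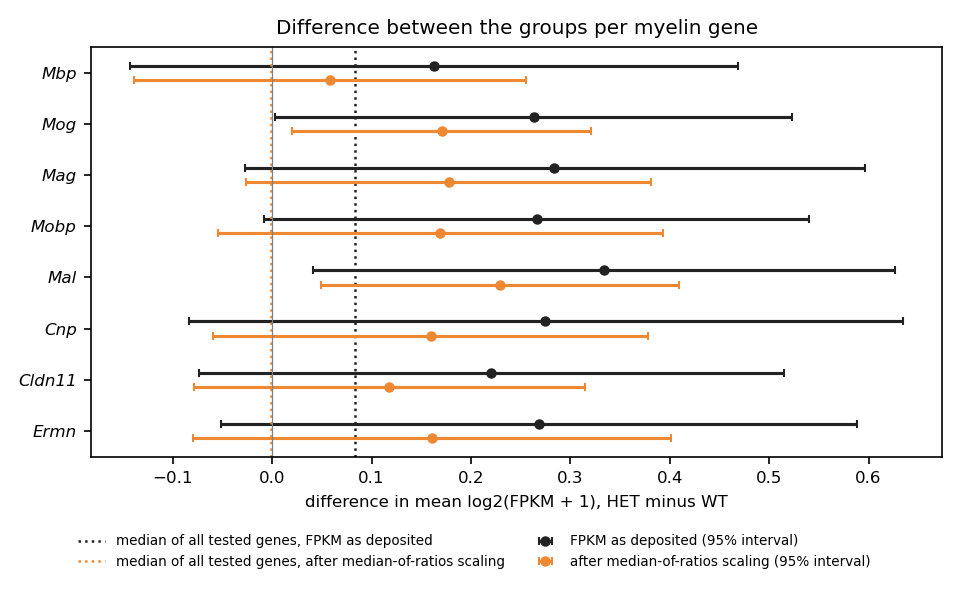
Difference in mean log2(FPKM + 1), HET minus WT, of the 8 tested members with unadjusted 95% intervals, as deposited (black) and after median-of-ratios scaling (orange). Dotted lines are the medians of all tested genes, 0.08 and 0.00; the intervals of Mog and Mal lie above 0 on both scales and the others include 0.

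The libraries took a similar order in most members. WT replicate 2 was the lowest library for 7 of 9 members, and also for 78.4% of all tested genes. HET replicate 2 was the highest for 7 of 9, and for 56.3% of all tested genes. On the scale of log2 FPKM centred on each gene's mean, the 9 members averaged 0.17, -0.38 and -0.22 in WT replicates 1, 2 and 3 and 0.03, 0.28 and 0.13 in HET replicates 1, 2 and 3. After scaling these averages were 0.06, -0.13 and -0.19 in WT and 0.02, 0.09 and 0.14 in HET. WT replicate 1 thus sat with the HET libraries on both scales. WT replicate 1 exceeded HET replicate 1 in 7 of 9 members as deposited and in 6 of 9 after scaling.

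**Figure D4:**
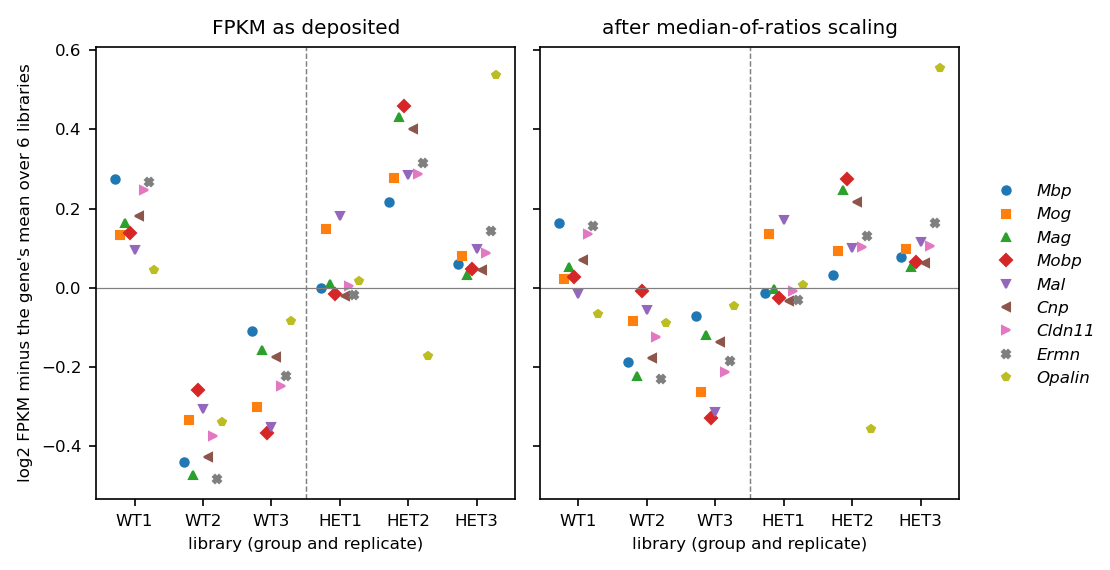
log2 FPKM of each member minus its own mean over the 6 libraries, as deposited (left) and after median-of-ratios scaling (right); 1 symbol per gene, WT left and HET right of the dashed line. As deposited the members average -0.38 in WT replicate 2 and 0.28 in HET replicate 2, and after scaling -0.13 and 0.09, while Opalin departs from the rest in both HET replicates 2 and 3.

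Ratios to Mbp within a library do not depend on scaling between libraries. The log2 ratio of Mag to Mbp, in FPKM, was 0.01, 0.09 and 0.07 in WT replicates 1, 2 and 3 and 0.13, 0.34 and 0.10 in HET replicates 1, 2 and 3. Mag was the only member whose ratio separated the groups, the nearest values being 0.09 and 0.10. The share of all genes whose ratio to Mbp separates the groups was not computed, so this count has no background. The mean ratio was higher in HET for each of the 8 members other than Mbp, by 0.07 (Cldn11 and Opalin) to 0.19 (Mal). Mbp, the shared denominator, had the smallest difference of the 8 tested members, 0.16. The higher ratios of the other tested members restate this and are not separate results.

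The other genes of the oligodendrocyte lineage were described by lists, and none of their genes passed the threshold. In a list of 34 further myelin membrane and junction genes, 29 were tested, 27 had a higher mean in HET and 2 a lower one, with a median of 0.14, beside a higher mean in 83.1% of all tested genes. After scaling 21 had a higher and 8 a lower mean, with a median of 0.06, beside a higher mean in 49.1% of all genes. Without both libraries numbered 2 the counts were 15 and 14, beside a higher mean in 34.7% of all genes. Without WT replicate 2 the median was 0.04 (19 higher, 10 lower), and without WT replicate 1 it was 0.31. In these last 2 settings all genes had medians of 0.01 and 0.15, with 55.3% and 90.6% higher. Among its most abundant genes were Sept4, a septin of the myelin cytoskeleton, with a difference of 0.20, and Cmtm5, a membrane protein of myelin, with 0.28. Tmem125 had the largest difference of that list, 0.39 (SE 0.12, limma Benjamini-Hochberg adjusted p 0.54). It was chosen after its values were seen.

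Genes of myelin lipid synthesis were mostly too low to test, 3 of 7 passing the filter. These were Cers2, a ceramide synthase, with 0.15, Elovl1, which lengthens fatty acids, with 0.19, and Ugt8a, which makes galactosylceramide, with 0.18, and their median was 0.18 (0.11 after scaling). Of 10 oligodendrocyte transcription factors 6 were tested, 4 with a higher and 2 with a lower mean in HET, and the median was 0.10 (0.02 after scaling, with 3 of 6 higher). Olig1, a lineage factor, had a difference of 0.22 and Sox8 of 0.20. Zfp488 had a lower mean in HET, at 3.04, 9.24 and 5.53 FPKM in WT and 4.41, 3.38 and 3.81 FPKM in HET, in replicate order. WT replicate 1 was the lowest and WT replicate 2 the highest of the 6, and the difference was -0.42 (SE 0.17, limma Benjamini-Hochberg adjusted p 0.90). Of the 11 genes of precursors and newly formed oligodendrocytes only Gpr17, a receptor of cells about to mature, was tested, with a difference of 0.11.

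The 8 tested members moved closely together over the 6 libraries. Pearson r between pairs, over 28 pairs that share the same 6 libraries and their depth, was 0.78 to 1.00 with a median of 0.92. After scaling it was 0.37 to 0.99 with a median of 0.76. Against the mean of the other members, Cldn11 had the highest scaled r (0.95) and Mbp the lowest (0.71).

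Many genes outside the list had a like profile, so that a high r was common before scaling. As deposited, 1560 genes had an r of at least 0.9 with the mean profile of the members, and after scaling 67 did. The median r of all tested genes was 0.80 as deposited and 0.04 after scaling. The 10 genes most like the members as deposited were Ndrg1 (0.998), Snrpa1, Ndufc1, Stoml1, Tmbim1, Rpl36, Rab1b, Ifngr2, Rtn2 and Atp6v1f (0.992). After scaling the closest genes included Tmbim1 (0.988), Atp6v1f, Ndrg1, Slc30a9, Ifngr2, Coprs, Uchl1, Rps2 and Dusp26 (0.962). Ndrg1, which mature oligodendrocytes and Schwann cells express, was in both, as were Tmbim1, Atp6v1f and Ifngr2.

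**Figure D5:**
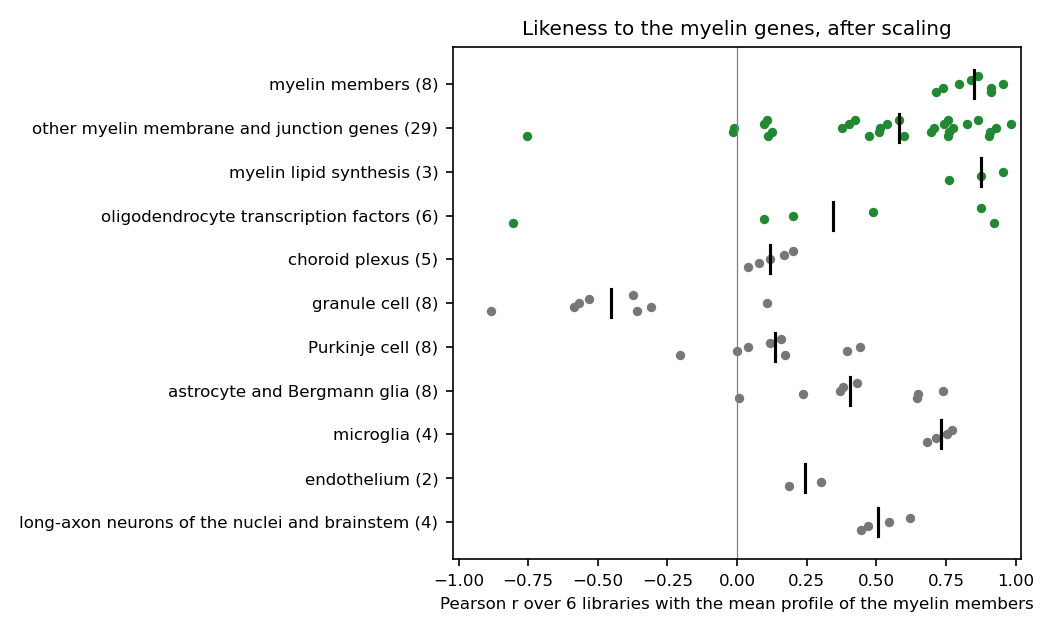
Pearson r over the 6 libraries, after median-of-ratios scaling, between each gene (point) and the mean profile of the members, by list, with the number of tested genes; black bars are medians and a member is compared with the other members. Members lie at 0.71 to 0.95, and granule cell genes have a median of -0.45.

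Markers of other cells were set beside the members. The scaled median r with the members' profile was 0.88 for the 3 lipid genes, 0.73 for 4 microglial genes and 0.58 for the 29 further myelin genes. It was 0.51 for 4 long-axon neuron genes, 0.41 for 8 astrocyte genes and 0.34 for 6 oligodendrocyte transcription factors. For 2 endothelial genes it was 0.24, for 8 Purkinje cell genes 0.14 and for 8 granule cell genes -0.45. The oligodendrocyte lists were not uniform. Transcription factors ranged from -0.8 (Zfp488) to 0.92 (Sox8), and the further myelin genes from -0.76 (Cntn2) to 0.98 (Ndrg1). Summed FPKM of the 7 microglial markers was 7.44 to 13.0 in WT and 10.1 to 18.3 in HET, overlapping, with a median difference of 0.30 for the 4 tested. C1qa and C1qc, complement genes and the most abundant of them, had 0.30 and 0.29. Summed FPKM of the 7 long-axon neuron genes, led by the neurofilaments Nefl and Nefh, was 43.6 to 80.2 in WT and 59.9 to 79.6 in HET. The part of these cells in the members' values was not tested.

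The remaining lists had 0 genes past the threshold as well. Median differences were 0.02 for granule cell genes (led by Cbln3 and Cbln1), 0.14 for Purkinje cell genes (Pcp2 and Pvalb), 0.17 for astrocyte genes (Aldoc and S100b) and 0.05 for the 2 tested endothelial genes (Cldn5 and Ly6c1). After scaling they were -0.10, 0.03, 0.06 and -0.06 in that order, where the members had 0.17. The 4 tested microglial genes had a higher scaled median than the members, 0.21, and the 4 tested long-axon neuron genes had 0.02.

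Tissues that border the cerebellum were looked for directly. Schwann cells of the cranial nerve roots share several myelin genes, and 5 Schwann cell markers summed to 0.297, 0.0724 and 0.0275 FPKM in WT replicates 1, 2 and 3 and to 0.0993 to 0.105 FPKM in HET. The 7 brainstem Hox genes were each at or below 0.131 FPKM, with 1 of them at 0 in all libraries, and their sum was 0.238 FPKM in WT replicate 1 and at most 0.0725 FPKM elsewhere. Choroid plexus markers, led by Ttr and Enpp2, varied far more than any member, their 8 genes summing to 306, 2.33 and 169 FPKM in WT replicates 1, 2 and 3 and to 6.02, 176 and 9.67 FPKM in HET replicates 1, 2 and 3. Their median difference was -0.73 (-0.74 after scaling), with a lower mean in HET in 5 of 5 tested genes, 0 past the adjusted threshold and 3 at an unadjusted limma p under 0.05. Of all 6358 tested genes, 1074 had a lower mean in HET, and 212 reached that unadjusted level in either direction. The 5 choroid plexus genes share the same 6 libraries and are not separate observations. The choroid plexus markers had a scaled median r of 0.12 with the members. WT replicate 1 thus had the highest sum of all 3 lists, and it is also the WT library nearest the HET libraries in the members. The members' median was 0.27 with WT replicate 1 and 0.41 without it, where all tested genes had 0.08 and 0.15. The part of these tissues in the members' values was not tested.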

How the data were processed

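Gene expression was measured in 6 cerebellum libraries, grouped by sample title. The authors' deposited values are FPKM, 1 library per file, under a column headed as RPKM per the file headers. Per the labels' protocols, mitochondrial and ribosomal sequences were filtered out, 2 bases trimmed, and stranded single-end total RNA reads aligned to mm10 with TopHat2 and Bowtie and quantified with Cufflinks; the authors' own Cuffdiff 2.1.1 test was not used. The annotation and the full versions of the other tools are not stated in any source used here. FPKM is relative to the size of the library, so an abundant RNA that varies can shift all other genes.

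The 6358 genes averaging 1 FPKM or more were tested on log2(FPKM + 1), pseudocount 1, by limma 3.58.1 in R 4.3.3 with a trend and Benjamini-Hochberg adjustment at 0.05, HET against WT over all 6 libraries. The prior held 54.4 degrees of freedom and each gene's libraries 4. The fit was tested on simulated data for this comparison, with 200 of 6358 genes changed in each of 10 runs. It recovered 78.8% of 1.5-fold and 100% of 2-fold changes, with 9.1 false calls per run. The simulated noise was drawn for each gene alone, whereas genes of the real libraries shifted together. Folds as small as the members' HET to WT ratios, 1.11 (Mbp) to 1.29 (Mal), were not simulated, so the recovery does not describe them. Positions matched 97.1% of genes in GENCODE M21. Depth came from 2439 single-exon genes whose low values step by whole reads, and reads of a gene are FPKM times span times depth. In HET replicate 2, 40 values read as spreadsheet dates, none of them a member, and those genes were left out of tests. Tables used Python 3.11.15 with pandas 2.3.3, numpy 2.4.6 and scipy 1.17.1, and figures matplotlib 3.10.9.

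The members, the lists, the tests and the alternatives were chosen with earlier results of these data known. The text names all members, Reln, the 3 most abundant tested genes and any gene past the threshold of each oligodendrocyte list, the 2 most abundant markers of other cell types, and the 10 genes most like the members; a few genes this rule would name are not reported here. Alternatives covered the pseudocount, the filter, 3 scalings, the trend, a replicate block and each library left out; 2 on RPM over the gene span (reads of a gene scaled to library size) were added after seeing the data.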

Additional observations from a re-analysis of the deposited data

How the results depend on the processing

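No member passed the adjusted threshold in limma under any of the 19 alternatives, the lowest adjusted p being 0.114 (Mal, without WT replicate 1; Benjamini-Hochberg). The 8 tested members had a higher mean in HET under each alternative that tested them (Mog and Mobp fell out of the filter at 5 FPKM), except that without WT replicate 2 and HET replicate 2 together Mbp turned to -0.05 and the members' median fell to 0.038. In that setting the lipid genes (median -0.03) and the precursor genes (-0.183) turned too. Gpr17, the 1 tested precursor gene, ranged from -0.035 (without WT replicate 2) to 0.311 (without WT replicate 1) as 1 library was left out, and was -0.034 without HET replicate 2; the highest values of Mbp and the lipid median, 0.328 and 0.312, also came without WT replicate 1. With RPM over the span and median-of-ratios scaling, where more genes of these lists pass the filter, the medians were -0.067 for precursors and -0.059 for transcription factors, and 0.192 for the members.

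Over all genes, 5 passed the threshold. The count was 3 with a pseudocount of 5, 1 with no filter, and 67 without WT replicate 2 and HET replicate 2. It was 0 with median-of-ratios (325 at an unadjusted p under 0.05), upper-quartile (328) and quantile (344) scaling, without a trend (203), and with RPM over the span, unscaled (246) or scaled (596). Leaving out 1 library gave 5 (WT replicate 2) to 62 (WT replicate 1) genes. The members' median was then 0.138 to 0.408, and that of all genes 0.013 to 0.15, lowest and highest without the same 2 libraries. Without WT replicate 1, Tmem125 (0.58, adjusted p 0.000619 in limma) and Zfp488 (-0.76, adjusted p 2.4e-05) passed, and without both libraries numbered 2, Trf did (-0.64, adjusted p 0.0142). Trf was at 27.6, 9.25 and 20.5 FPKM in WT and 12.6, 25.4 and 17.6 FPKM in HET, in replicate order. The libraries numbered 1 and 3 had choroid plexus sums of 306 and 169 FPKM in WT and 6.02 and 9.67 FPKM in HET. The part of choroid plexus in the values of Trf was not tested. The replicate block gave 13 genes, 0 of them members, with a members' median of 0.267, and with median-of-ratios scaling 0 genes (373 unadjusted) and a median of 0.165. The deviations of same-numbered libraries from their group means correlated at -0.28, -0.52 and 0.14. No library correlated best with its own number, although HET replicate 3 had a near value, 0.15, with WT replicate 2. Deviations within a group of 3 depend on each other, so these values cannot decide whether the numbers pair the libraries. The cause of these changes was not tested.

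With 3 libraries a group, the members' unadjusted 95% intervals were wide, reaching 0.47 (Mbp) to 0.64 (Cnp) on the log2 scale. Counting error was at most 7.32% of a member's value.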
